A study of Mus musculus with 2 samples.

Results

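The deposited expression table of this study lists 24440 features, and 4718 of them carry an identifier made of the letter n and digits. The features described here are the 1709 of these 4718 whose larger value in the libraries was at least 1 FPKM (fragments per 1 kb of transcript, adjusted for sequencing depth). They were thus chosen by their measured FPKM. The remaining 3009 stayed below that level. The file does not say what an n identifier stands for. It gives each feature a printed locus, which is a chromosome with a start and an end, and 1 FPKM value per library. Of the 1709 features, 9 lie at the start of chromosome 9 and are described apart, which leaves 1700.

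Wild-type C57BL/6 mice, 6 to 8 weeks old, were the source of the CD4+ T cells. The cells were kept in Th17 conditions for 48 h, which lead towards the IL-17-producing kind of T helper cell. In one culture the antigen presenting cells (APCs) were wild type (the WT-APC library). In the other they were transgenic for OX40L, which binds the costimulatory receptor OX40 on T cells (the OX40L-TG-APC library). There was 1 library per condition, so no value has a replicate check, no test was possible, and every comparison below is between these 2 libraries and not between the conditions. The promoter of the transgene, the kind of APC and the number of mice behind a library are not given in the sources used here.

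Most mammalian genes are far longer than their mature mRNA, because introns are cut out of the primary transcript and degraded. Total RNA therefore holds, beside mature mRNA, RNA from introns, from noncoding genes, from mitochondria and from repeats. In mouse chromosomes the centromere lies near 1 end, and the DNA beside it consists of tandem copies of a short unit, the major satellite, packed as heterochromatin.

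Low values of the all-digit genes stepped in whole fragments, and 1 fragment was worth 1.146 times as much FPKM in the WT-APC library as in the OX40L-TG-APC library (161 genes under 0.05 FPKM in both, 65.2% of them at whole-number ratios within 0.2%). The OX40L-TG-APC library was thus somewhat deeper. The transcript lengths of the n features are not in the files, so the number of fragments behind each value is unknown and no interval is given. The 6 T cell markers found of 7 looked for summed to 1305 FPKM in the WT-APC and 1325 FPKM in the OX40L-TG-APC library, and none differed 2-fold. All 10 B cell markers were lower in the OX40L-TG-APC library, with sums of 51.8 and 22.8 FPKM (WT first), and 3 of them were at least 2-fold lower. Of 10 myeloid and dendritic cell markers 9 were lower (16.6 and 7.33 FPKM), 3 of them at least 2-fold, and no marker of either list was listed at 0. Hemoglobin genes, 3 found of 4, summed to 40.03 and 77.6 FPKM. In bulk RNA, fewer cells of a type and less RNA per cell cannot be told apart.

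Sequences are shown for the regions on which the results turn. The start of chromosome 9 is shown first, because all of its n features were listed at 0 in 1 library. The printed locus, chr9:3000192-3168181, overlaps 28 transcripts of at least 600 bases, from 12 genes, in the GENCODE M21 annotation (build GRCm38). A script compared each transcript with itself at shifts from 50 bases on, below an upper limit of 400 bases. In 21 of the 28 transcripts the best match was at a shift of 234 bases and in 5 at 237 bases. Of all 101823 annotated transcripts of that length 25 (0.0246%) matched themselves at a shift of 234 bases with at least 55% identity, and 21 of these 25, from 10 genes, lie in this locus. A tandem unit of this length is that of the mouse major satellite. The highest match, 95.9%, was in Gm26870-202, a noncoding transcript on the minus strand at chr9:3017875-3038310. Its bases 1 to 234 and 235 to 468 are the first 2 sequences below. The third is a stretch of Gm21738-201 (minus strand, chr14:19415857-19418930, bases 66 to 299). It best matches the reverse complement of the first unit repeated end to end. The match begins inside the unit, so the third sequence starts at another point of the repeat. Capitals mark bases that differ from the first unit, in the third sequence from its reverse complement so placed. There are 17 in the second sequence and 12 in the third, so that the identities are 92.7% and 94.9%.
Gm26870-202, first unit: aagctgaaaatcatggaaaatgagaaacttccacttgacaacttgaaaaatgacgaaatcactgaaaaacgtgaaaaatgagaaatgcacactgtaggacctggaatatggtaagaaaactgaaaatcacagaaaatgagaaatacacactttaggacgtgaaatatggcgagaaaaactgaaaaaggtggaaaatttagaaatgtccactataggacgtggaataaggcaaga
Gm26870-202, second unit: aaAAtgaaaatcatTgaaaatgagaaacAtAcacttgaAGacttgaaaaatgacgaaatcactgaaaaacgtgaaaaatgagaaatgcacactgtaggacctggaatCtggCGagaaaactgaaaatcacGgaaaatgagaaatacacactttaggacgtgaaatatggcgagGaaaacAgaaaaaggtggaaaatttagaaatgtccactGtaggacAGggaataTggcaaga
Gm21738-201: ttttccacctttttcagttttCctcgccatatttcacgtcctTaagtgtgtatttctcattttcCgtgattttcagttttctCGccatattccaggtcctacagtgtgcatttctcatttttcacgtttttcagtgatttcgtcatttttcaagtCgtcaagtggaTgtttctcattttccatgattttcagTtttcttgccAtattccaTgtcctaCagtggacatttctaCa

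A further region is shown because it holds a microRNA (miRNA). The locus of n3927, chr16:84713276-84715490, overlaps the GENCODE genes Mir155hg and Mir155. Of the 107 loci (115 n features) under 20000 bases that share no base with an all-digit locus, it is the 1 with a miRNA hairpin in the RefSeq table (GRCm38.p6). Its mature miRNAs lie on the plus strand at chr16:84714143-84714165 (5p) and chr16:84714182-84714202 (3p). Capitals mark the seed, bases 2 to 8, through which a miRNA pairs with its targets.
mmu-miR-155-5p: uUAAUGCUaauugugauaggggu
mmu-miR-155-3p: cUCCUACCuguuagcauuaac

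Most n features were weakly expressed. Outside the start of chromosome 9 the median level was 1.67 FPKM in the WT-APC library (quartiles 1.22 and 2.70) and 1.42 FPKM in the OX40L-TG-APC library (1.02 and 2.32). The larger value lay between 1 and 2 FPKM for 976 features (57.4%), 167 reached 5 FPKM, 70 reached 10 FPKM and 8 reached 100 FPKM. All-digit features passing the same level, which carry Entrez gene identifiers, had medians of 13.3 and 14.2 FPKM, and features with XLOC identifiers 1.41 and 1.01 FPKM. The level chose the features, so these values are a description. Just inside the limit were n276876 (1.001 and 0.788 FPKM, WT first) and n278474 (0.939 and 1.001 FPKM), and just outside were n289476 (0.9996 and 0.756 FPKM) and n276234 (0.943 and 0.998 FPKM).

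**Figure D1:**
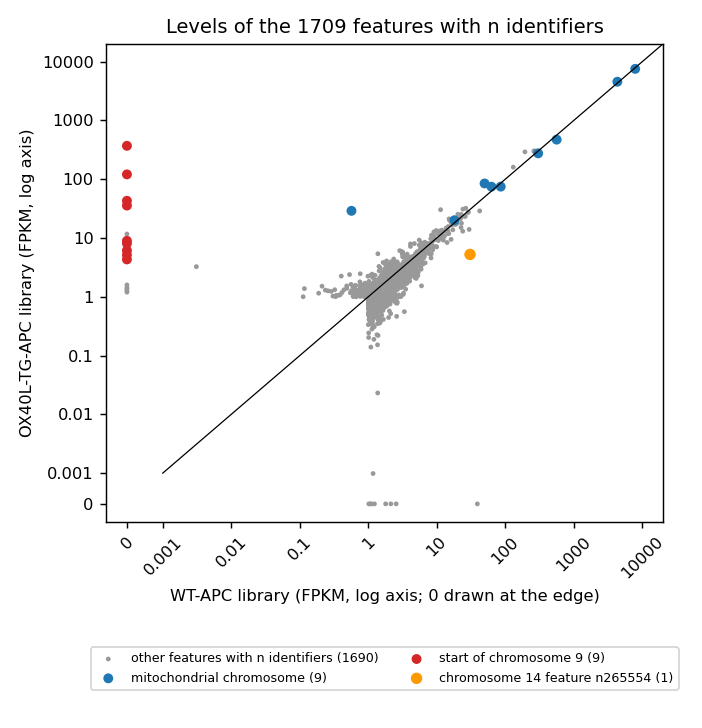
FPKM of each of the 1709 n features in the WT-APC (x) and OX40L-TG-APC (y) library on log axes, 1 point per feature, with values of 0 drawn at the edge and the line of equal values. Most points lie between 1 and 10 FPKM, the 9 features of the start of chromosome 9 sit at 0 on the x axis, and n422896 of the mitochondrial chromosome and n265554 of chromosome 14 lie away from the line.

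The printed loci fell into 2 classes. For 1576 of the 1700 features (92.7%) the locus was identical, base for base, to that of at least 1 all-digit gene. For the other 124 (7.29%) it shared no base with any. None lay inside, contained or partly overlapped an all-digit locus. All but 2 of the 1576 had a gene of at least 1 FPKM at their locus. The 1576 features used 1044 loci, and the locus held 1 gene for 1247 of them, 2 genes for 239, 3 for 49 and 4 to 18 for 41. A locus is thus shared by all features the authors' processing put there, and where in it an n feature lies is not printed. The median locus length over features was 69752 bases for the 1576 with a shared locus and 2328 bases for the 124 without. A locus counts here once for each of its features. Of the 10645 all-digit features, 1339 (12.6%) shared their locus with an n feature. With XLOC features 159 n features had an identical locus and 1541 shared no base. Over all 1158 loci, 856 held 1 n feature, 186 held 2, 56 held 3 and 60 held 4 to 11, so features of 1 locus are not separate observations.

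The change of a feature is given on the log2 scale as the ratio of its 2 FPKM values after adding 1 to each, with positive values for features higher with OX40L-TG APCs. This scale understates the ratio of low features. Of the 1700 features 14 (0.824%) were at least 2-fold higher and 21 (1.24%) at least 2-fold lower. Over all 15742 features of at least 1 FPKM these shares were 2.46% and 6.68%, over the all-digit features 2.26% and 1.32%, and over the XLOC features 3.63% and 26.2%. With the start of chromosome 9 the n features gave 23 (1.35%) and 21 (1.23%). The shares of the 1700 lay at or below these backgrounds, so the counts called are not a result about the n features. The 35 called features include 6 listed at 0 in the WT-APC library and 8 listed at 0 in the OX40L-TG-APC library.

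Most n features were slightly lower in the OX40L-TG-APC library. The median change was -0.16, with quartiles of -0.35 and 0.04, and 1196 of 1700 (70.4%) lay below 0. All-digit features had a median of 0.11, with 31.7% below 0, and XLOC features -0.40, with 70.4% below 0. The 6038 all-digit genes of at least 10 FPKM in both libraries had a median ratio of 0.13 on the log2 scale. With that ratio set to 0 the median of the n features was -0.24. The gap to the all-digit features was also seen at like levels. Between 1 and 3 FPKM the median was -0.16 for 1307 n features and 0.08 for 1308 all-digit features, and from 3 FPKM up it was -0.15 for 393 and 0.12 for 9337. Features with a gene at the same locus had a median of -0.16 and those without one -0.01.

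**Figure D2:**
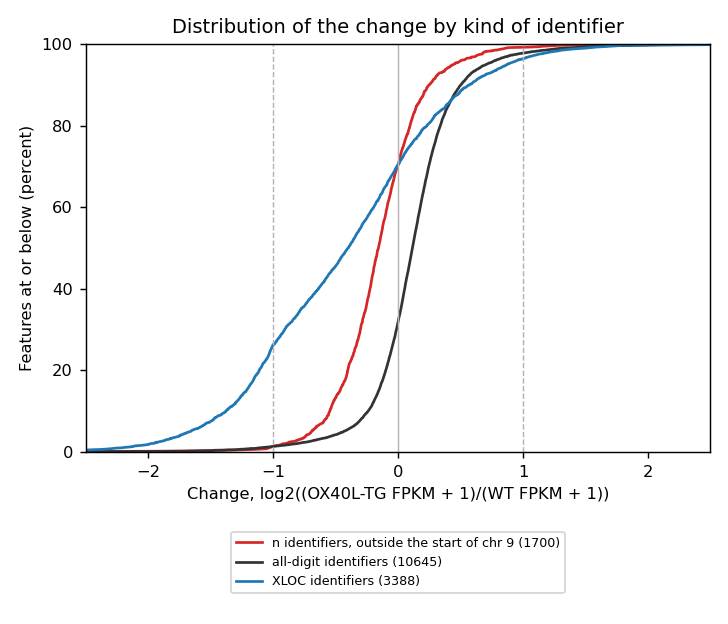
Share of features (y, percent) whose change is at or below the value on x, log2((OX40L-TG FPKM + 1)/(WT FPKM + 1)), for 1700 n features, 10645 all-digit features and 3388 XLOC features; dashed lines mark 2-fold. The curve of the n features lies to the left of that of the all-digit features around 0, with medians of -0.16 and 0.11.

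For the 1247 features whose locus held 1 gene, feature and gene could be set side by side. The n feature stood at a median of 8.05% of the gene's FPKM in the WT-APC and 6.39% in the OX40L-TG-APC library, and the gene was the higher of the pair for 1225 and 1229 features. The median change was -0.17 for the features and 0.08 for the 840 genes, and 1001 features (80.3%) had a lower change than their gene. Without the minimum of 1 FPKM 2379 of 3276 features (72.6%) did. Adding 1 FPKM draws the change of a low feature towards 0 more than that of its gene. All 14 features at genes at least 2-fold higher lay below their gene, and 0 of 13 at genes at least 2-fold lower did. The part of this scale in the 80.3% was not tested. Across the 1247 features Pearson's r between the changes was 0.49 and Spearman's rho 0.46. This is a description across features of the same 2 libraries, several of which share a gene.

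Where the gene itself was at least 2-fold lower or higher, the n features lay on the same side. For 6 genes called lower, all 13 features had negative changes (median -0.88), and for 11 genes called higher, all 14 had positive changes (median 0.52). Of the 13 features 6 lie at Foxp1. Over all 1247 features at loci of 1 gene 907 (72.7%) were negative. Only features of at least 1 FPKM in the higher library enter these counts, so several were kept only through the library in which they are high. Without that limit 49 of 54 features were negative at 19 genes called lower and 32 of 34 were positive at 19 genes called higher. Over all 3276 features at loci of 1 gene, again without that limit, 2300 were negative.

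**Figure D3:**
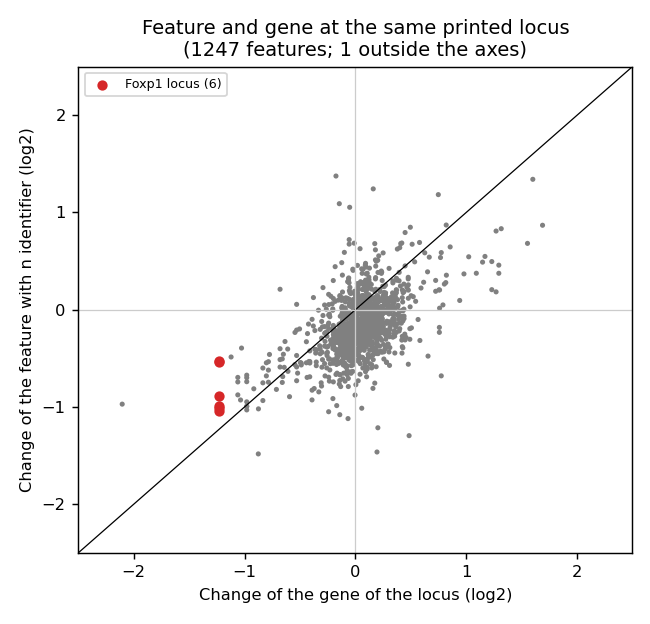
Change of the n feature (y) against that of the gene printed at the same locus (x), both on the log2 scale with 1 FPKM added, 1 point per feature, with the line of equal change. Most points lie under the line, 1001 of 1247, the feature at Chchd3 that is listed at 0 (-5.33) lies outside the axes, and the 6 features of the Foxp1 locus are coloured.

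Foxp1 encodes a transcription factor that helps keep T cells quiescent. Its locus, chr6:98925341-99616981, held 6 n features. In the WT-APC library they stood between 1.19 and 3.23 FPKM, and in the OX40L-TG-APC library between 0.516 and 1.10 FPKM. Each was lower in the second library, and 5 of the 6 reached 1 FPKM in the first alone, so they were kept through their WT-APC value. The gene itself stood at 19.3 and 7.63 FPKM (change -1.23). Of the 6, n270818 had the lowest change, from 2.13 to 0.516 FPKM (-1.04), and n286822, the highest in level, went from 3.23 to 1.10 FPKM (-1.01).

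Tox encodes a nuclear factor of T cell differentiation and persistence. The 3 n features of its locus, n295123, n283942 and n280070, stood at 1.01 to 1.09 FPKM with WT APCs and 0.139 to 0.243 FPKM with OX40L-TG APCs, beside a gene at 6.54 and 2.61 FPKM. In the locus of Ssh2, which encodes a phosphatase that acts on the actin regulator cofilin, n266204 stood at 5.26 and 2.29 FPKM beside 71.2 and 34.2 FPKM for the gene. In that of Atp6v0d2, a subunit of the vacuolar proton pump, n292580 stood at 1.39 and 0.220 FPKM beside 28.6 and 5.88 FPKM. The 3 Tox features and n292580 reached 1 FPKM in the WT-APC library alone. They were thus kept through the library in which they are high, and their direction adds little.

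At the following 2 genes, called higher, the feature was also higher but not called on the log2 scale with 1 FPKM added. In the locus of Ndrg1, a stress-induced gene, n285969 stood at 1.65 and 3.83 FPKM (0.87) beside 31.8 and 105 FPKM. In that of Dusp5, a phosphatase of the MAP kinase ERK, n293480 stood at 1.82 and 3.53 FPKM (0.68) beside 19.8 and 60.1 FPKM.

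Of 18 genes of the Th17 programme, all in the table, 3 had an n feature at their locus, and all 3 features had negative changes within 2-fold. At the locus of Il23r, the receptor gene for IL-23 (chr6:67422931-67491855), n266877 stood at 2.80 and 1.89 FPKM (-0.39) beside 31.4 and 14.9 FPKM for the gene. At that of Ahr, a ligand-activated transcription factor, shared with Snx13, n266934 stood at 5.42 and 4.00 FPKM (-0.36). At the locus of Stat3, the signal transducer of IL-6 and IL-23, shared with Stat5a, n271790 stood at 4.81 and 4.65 FPKM (-0.04) while Stat3 stood at 159 and 254 FPKM. None of 19 hosts of small RNAs and other noncoding genes found in the table, of 25 looked for, had an n feature of this level at its printed locus. Mir155hg, also looked for, had no all-digit locus there, but n3927 overlaps it in the GENCODE annotation.

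In all, 16 loci held 6 or more n features. Aff3, a nuclear factor gene, held 11 features (chr1:38177326-38664955). All 11 had negative changes, from -1.46 to -0.04 with a median of -0.35, while the gene stood at 49.5 and 56.8 FPKM (0.19). The lowest was n294595, at 5.99 and 1.53 FPKM. Skap1, an adaptor gene of T cell receptor signalling, held 9, all negative (median -0.58), beside a gene at 59.3 and 56.2 FPKM. Ext1, which encodes a heparan sulfate polymerase, held 7 (median -0.95) beside a gene at 41.9 and 20.7 FPKM (-0.98). Bach2, a transcriptional repressor that restrains effector differentiation, shares its locus with Bach2os. The 6 features there were the highest of these loci, at 3.30 to 16.2 FPKM with WT APCs and 2.28 to 9.48 FPKM with OX40L-TG APCs (median change -0.68), while Bach2 stood at 43.0 and 33.5 FPKM (-0.35). Of the 16 loci, those of Aff3, Skap1, Ext1, Bach2, Foxp1, Zcchc7 and Hmox2 held negative features only. The others held features of both signs. At Bptf, a chromatin remodelling gene, 5 of 10 features were negative (median 0.02), and at Zeb1, a transcriptional repressor gene, 4 of 7 were (median -0.04). The median ratio of 0.13 given above is that of genes of at least 10 FPKM. The Bptf features stood at 1.16 to 2.99 FPKM with WT APCs, where adding 1 FPKM draws a change towards 0. Their median is thus not directly comparable with it. Aff3 and Bach2 are also expressed by B cells, and the summed B cell markers went from 51.8 to 22.8 FPKM. The part of B cells in these values was not tested.

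**Figure D4:**
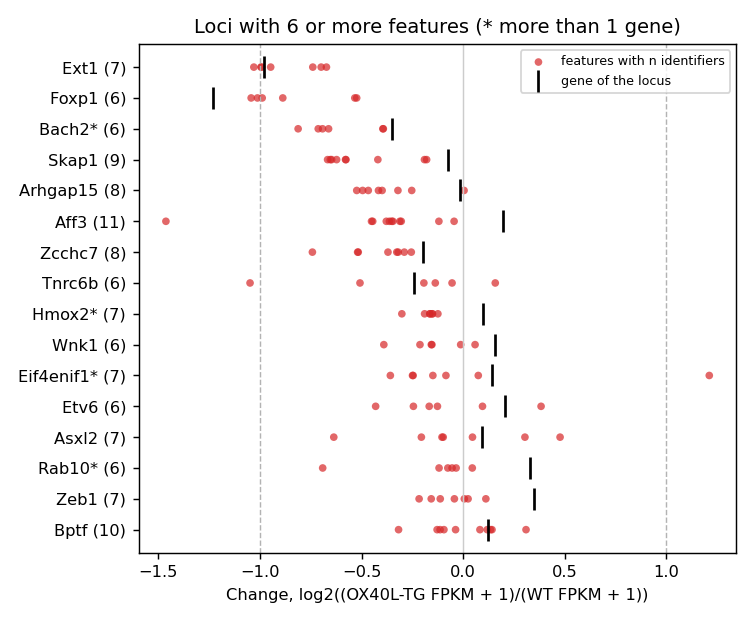
Change (x, log2((OX40L-TG FPKM + 1)/(WT FPKM + 1))) of each n feature (points) at the 16 loci that held 6 or more of them (y, number in brackets), with a black bar for the gene of the locus, or for the gene of highest FPKM where a star marks several genes; dashed lines mark 2-fold. All features of Ext1, Foxp1, Bach2, Skap1, Aff3, Zcchc7 and Hmox2 lie below 0, while each other locus, such as Bptf and Zeb1, has features on both sides.

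The other low extremes lay at loci whose gene did not follow. At the locus of Pkn3 and Zdhhc12, n296371 stood at 3.37 and 0.559 FPKM (-1.49), and Zdhhc12, a palmitoyltransferase gene, at 13.3 and 14.8 FPKM. At that of Dctn4, a dynactin subunit, n294386 stood at 2.60 and 0.465 FPKM (-1.30) beside 20.8 and 29.5 FPKM. At that of Hspa13, a chaperone gene, n297093 stood at 1.37 and 0.0231 FPKM (-1.21) beside 8.16 and 9.54 FPKM. Also among the 8 lowest were n286277 at Arglu1 (1.18 and 0.000985 FPKM, -1.12) and n296166 at the locus of Macf1 (1.98 and 0.444 FPKM, -1.05). At the locus of Ncbp2, a cap-binding protein gene, and 0610012G03Rik, n414373 went the other way, from 0.00309 to 3.26 FPKM (2.09), while Ncbp2 stood at 24.3 and 20.2 FPKM. The high extremes further held n293994 at a locus of 3 genes with Eif4enif1 (0.404 and 2.25 FPKM, 1.21), n271232 at Ankrd10 (0.117 and 1.38 FPKM, 1.09) and n286962 at Huwe1, a ubiquitin ligase gene (0.212 and 1.51 FPKM, 1.05). The changes of Eif4enif1, Ankrd10 and Huwe1 were 0.14, -0.15 and -0.05.

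Outside the start of chromosome 9, 6 of 1700 features were listed at 0 in the WT-APC library and 8 in the OX40L-TG-APC library, and none in both. The share at 0 in 1 library was 0.824%, against 0.113% of the all-digit and 16.6% of the XLOC features of at least 1 FPKM. Among all 4718 n features, 124 were listed at 0 only in the first and 137 only in the second. A listed 0 can be a failed estimate, so no fold is given against one. The highest was n284231 at the locus of Chchd3, a gene of mitochondrial cristae organisation (chr6:32792226-33060152). It stood at 39.1 FPKM with WT APCs and was listed at 0 with OX40L-TG APCs, while Chchd3 stood at 60.1 and 69.2 FPKM. The next highest listed at 0 with OX40L-TG APCs were n267580 at the locus of Capza2 and St7 (2.56 FPKM with WT APCs), n269412 beside Trappc2 (2.14 FPKM), n295442 at Cldnd1 (1.80 FPKM) and n289184 (1.23 FPKM). In the other direction n290734 (chr5:65838330-65858240), 5328 bases from Rhoh, a haematopoietic GTPase gene, was listed at 0 with WT APCs and stood at 11.7 FPKM with OX40L-TG APCs. Rhoh stood at 19.9 and 21.2 FPKM. The other 5 listed at 0 with WT APCs were at most 1.59 FPKM with OX40L-TG APCs, led by n289793 at Nrip1. Next were n294632 at a locus of 3 genes with Ogfr (1.42 FPKM), n343567 at Alg6 (1.37 FPKM) and n297059 at Kank3 (1.27 FPKM).

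The 124 features without an all-digit gene at their locus held most of the high levels, 7 of the 8 that reached 100 FPKM. In the GENCODE annotation 57 of the 124 overlapped a protein-coding gene, 16 a long noncoding gene, 14 a pseudogene and 5 another gene, and 32 overlapped none. Of the 115 on a chromosome with all-digit genes, 60 lay within 5 kb of an all-digit locus and 30 within 1 kb. The 3 highest of them outside mitochondria overlapped processed pseudogenes. They were n268358 at Rpl31-ps8 (264 and 305 FPKM), n295611 at Gm7964 (262 and 298 FPKM) and n420777 at Gm15459 and Gm26825 (131 and 161 FPKM). A processed pseudogene is a genomic copy of an mRNA, so reads of the parent gene may be placed on it and these values are uncertain for that reason. The exception among the high features was n265082, whose locus is that of Zc3h7a, at 194 and 292 FPKM beside 38.7 and 36.0 FPKM for the gene. The tenth highest feature by the mean of both libraries, n265835 (chr3:5860338-5860826), overlapped no annotated gene and stood at 70.6 and 74.8 FPKM.

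The next 2 features were chosen after their values were seen. Il21 encodes a cytokine of Th17 and follicular helper cells. At 1635 bases from its locus, n286761 (chr3:37234253-37248662) overlapped no gene of either annotation. It stood at 29.7 FPKM with WT APCs and 14.0 FPKM with OX40L-TG APCs, 2.12-fold lower (change -1.03), whereas Il21 stood at 135 and 191 FPKM (0.51). The Mir155hg feature n3927, whose miRNAs are printed above, stood at 4.71 and 8.04 FPKM (0.66). Mir155hg is the precursor gene of miR-155, a miRNA induced in activated T cells. The values are those of the precursor region, and mature miRNAs were not measured.

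The mitochondrial chromosome carries the genes of the mitochondrial rRNAs, tRNAs and some subunits of the respiratory chain and ATP synthase, transcribed as long precursors. The table had 10 n features and no all-digit or XLOC feature there, and 9 of the 10 reached 1 FPKM. The highest of all n features was n269743 at chrM:69-957, within the 12S rRNA gene mt-Rnr1, at 7882 FPKM with WT APCs and 7542 FPKM with OX40L-TG APCs. Next was n422895 at mt-Co1, a subunit gene of cytochrome c oxidase, with 4329 and 4558 FPKM. The features at mt-Nd2 (n422894, 302 and 276 FPKM), at the stretch from mt-Nd5 to mt-Cytb (n422898, 563 and 472 FPKM, and n423941, 62.7 and 74.7 FPKM) and at mt-Tp and the bases beyond it (n297626, 85.8 and 74.8 FPKM, and n278853, 49.9 and 84.7 FPKM) stayed within 2-fold.

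One mitochondrial feature differed. The locus of n422896, chrM:7009-7699, covers mt-Co2 (7013 to 7696), another cytochrome c oxidase gene. It stood at 0.569 FPKM with WT APCs and 29.0 FPKM with OX40L-TG APCs, a ratio of 51.0 and a change of 4.26, the highest among n features above 0 in both libraries. Neighbouring loci did not show this. The mt-Co1 feature had a ratio of 1.05, and n272837, over the end of mt-Co3 and mt-Nd3, stood at 18.1 and 20.1 FPKM. The feature below the limit, n294267 at mt-Atp8 and mt-Atp6, stood at 0.775 and 0.346 FPKM. The levels at mt-Co2 and at mt-Atp8 and mt-Atp6 were far below that at mt-Co1 in both libraries, although FPKM is per length.

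At the start of chromosome 9 the table listed 10 features, all with n identifiers, all at the same printed locus of 167989 bases. All 10 were listed at 0 in the WT-APC library and above 0 in the OX40L-TG-APC library, and 9 of them reached 1 FPKM. The highest with OX40L-TG APCs was n265639 at 370 FPKM, followed by n266116 at 121 FPKM, n265786 at 43.0 FPKM and n265737 at 35.6 FPKM. The others were n265637 at 8.96, n266287 at 8.10, n265764 at 6.15, n265717 at 5.15 and n266007 at 4.32 FPKM, and n266406 stood below the limit at 0.661 FPKM. The 10 share 1 locus and count as 1 observation. Since the WT-APC values are listed at 0, no fold is given.

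Other loci were also listed at 0 as a whole. Of 27 loci with at least 2 features that were all at 0 in exactly 1 library, 4 were at 0 in the WT-APC library and 23 in the other. The start of chromosome 9 was the 1 among the 4 with a value of at least 1 FPKM, and the highest value in the other 3 was 0.203 FPKM. Of the 23 loci at 0 in the OX40L-TG-APC library, 4 had a value of at least 1 FPKM, so whole loci at 0 in 1 library were not particular to this one. The feature numbers and levels of those 4 loci were not compared with those of the start of chromosome 9. None of its 10 OX40L-TG-APC values was printed with more than 6 digits, against 41.7% of all values above 0 in the table. The nearest n feature downstream, n273249 at chr9:3338444-3386925, stood at 5.90 and 6.31 FPKM, beside 7.57 and 7.53 FPKM for the gene of its locus, Alkbh8.

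The chromosome 14 feature n265554 (chr14:19417582-19420667) overlaps Gm21738, whose sequence is printed above with 94.9% identity to the chromosome 9 unit. It is the 1 feature of the table outside chromosome 9 at a transcript with the repeat at a shift of 234 bases. It stood at 30.6 FPKM with WT APCs and 5.25 FPKM with OX40L-TG APCs, 5.82-fold lower, with the lowest change (-2.34) among n features above 0 in both libraries. Features at the same repeat were thus listed higher with OX40L-TG APCs on chromosome 9 and higher with WT APCs on chromosome 14. The chromosome 9 side rests on WT-APC values listed at 0, which can be failed estimates, so an opposite direction is not established. Reads of near-identical copies cannot be assigned to 1 of them with certainty, so each of these 11 values is uncertain.

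**Figure D5:**
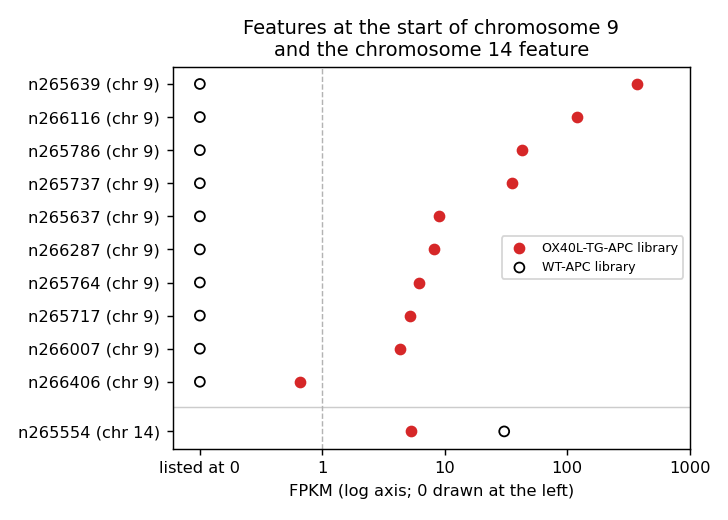
FPKM (x, log axis, 0 drawn at the left) of the 10 features at the start of chromosome 9 and of n265554 on chromosome 14 (y), with filled points for the OX40L-TG-APC and open points for the WT-APC library; the dashed line is the limit of 1 FPKM. The chromosome 9 features run from 0.661 to 370 FPKM in the OX40L-TG-APC library and are all listed at 0 in the WT-APC library, while n265554 goes from 30.6 to 5.25 FPKM.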

How the data were processed

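The authors deposited 1 FPKM value per feature and library. The tools named are TopHat2 and Cuffdiff and the build mm9, per the submitters' processing notes. Their versions and settings, the gene models and how multiply matching reads were placed are not stated there. A comparison table deposited by the authors, with log2 ratios and p-values per the file headers, lists 398 genes and no n feature, so it was not used. Of 13056 all-digit identifiers 13030 were found in RefSeq (GRCm38.p6), and 99.7% of these overlapped their GRCm38 gene. The printed loci thus follow GRCm38. They are given as printed, and for 5196 genes the printed start lies 1 base below the RefSeq start. Of the values above 0, 41.7% had more than 6 digits, and 99.4% of those with 7 digits ended in 5, as a mean of 2 values of 6 digits would. How the means were made is not stated.

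Change was computed with a pseudocount of 1 FPKM after a minimum of 1 FPKM in the higher library and called at 2-fold. Overlap needed 1 shared base. Python 3.11.15 and pandas 2.3.3 were used, and the code for the calls and overlap classes was run on simulated data. The reliability of calls near the minimum of 1 FPKM was not tested. The features named were the 10 of highest mean FPKM, the 8 highest and 8 lowest changes, up to 5 listed at 0 in each direction, all at the start of chromosome 9 and those at genes of the lists. Of the 8 highest changes 1 is not reported here. Those at genes that changed 2-fold and at loci with many features were added after the values were seen. Members and lists were chosen with earlier results of these data known. Pseudocounts, filters, scalings and overlap rules were varied.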

Additional observations from a re-analysis of the deposited data

How the results depend on the processing

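The counts of called features depended on the scale. With a pseudocount of 0.5 FPKM 24 features were at least 2-fold higher and 52 lower, with 5 FPKM 3 and 2, and with a minimum of 5 FPKM 4 and 4, out of 167 features left. Keeping the start of chromosome 9 gave 23 higher. The median ratio of 6038 well-expressed genes set to 0, a log2 shift of 0.13, gave 13 higher and 29 lower, and equal totals gave 14 and 26. The median change stayed negative in these settings, from -0.24 to -0.06. Of 29 named features above 0 in both libraries 16 were at least 2-fold different, and 13 of these 16 fell short of 2-fold with the pseudocount of 5 FPKM, and n286962 (0.98) did so with the median ratio set to 0. None changed direction while called. Without the filter 208 features were listed at 0 in the WT-APC library and 231 in the OX40L-TG-APC library, with the minimum of 5 FPKM 1 and 1, and with the start of chromosome 9 kept 15 in the WT-APC library. Median levels were 0.645 and 0.516 FPKM (WT first) without the filter and 8.18 and 7.54 FPKM with the minimum of 5 FPKM, since the minimum sets them. The overlap with all-digit loci stayed at 1576 when 50% or all of the locus had to be covered. This could not have changed, because every overlapping locus was identical to an all-digit locus. No paired analysis was possible because each condition had 1 library, and for the same reason no library could be left out. Depth per feature is unknown.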

Other observations

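Although most n features stood far below the gene of their locus, a few stood above it. Of the 1247 at loci of 1 gene, 22 were higher than the gene with WT APCs. In the locus of Acp1, a phosphatase gene, n285492 stood at 15.1 and 21.2 FPKM (WT first), while Acp1 was listed at 1.92 and 2.10 FPKM. In that of E2f5, a cell cycle transcription factor gene, n296033 stood at 16.2 and 20.6 FPKM beside 5.63 and 5.36 FPKM. These examples were chosen after their values were seen.

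The next examples were also chosen after their values were seen. In the locus of Birc3, which encodes the ubiquitin ligase cIAP2, n266560 stood at 23.4 and 23.6 FPKM beside 50.4 and 50.1 FPKM. In the locus of Ski, a repressor of TGF-beta signalling, n289499 stood at 24.0 and 13.1 FPKM beside 92.6 and 70.4 FPKM.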
